A study of Mus musculus with 4 samples.

Results

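Of the 15824 NFIC peaks of the mouse pancreas, 679 lay in intergenic sequence at more than 100 kb from the nearest transcription start site (TSS), and are named far intergenic peaks here. They were chosen by position alone, as the peaks whose class in the authors' annotation is intergenic and whose distance to the TSS is over 100000 bp on either side. They made up 4.29% of all peaks (95% Wilson interval 3.99 to 4.62) and 14% of the 4840 intergenic peaks. The comparison groups were the 2983 mid-range intergenic peaks, at 10 to 100 kb from a TSS, which are the class most alike, and all 15145 other peaks. The data come from ChIP-Seq of the pancreas of wild-type mice of mixed strain, aged 8 to 12 weeks, with 3 libraries precipitated with an antibody against NFIC and 1 library of input DNA. Whole pancreas was used, so binding in acinar, ductal, islet and other cells cannot be told apart. The authors deposited 1 merged list of peaks on the mouse genome build mm10, each 173 bp long. It gives no value for a single library or for the input DNA, so there is no error between replicates and the depth is unknown. All intervals below are 95% intervals that cover counting error over peaks of this 1 list only.

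NFIC belongs to the nuclear factor I (NFI) family of transcription factors. These proteins bind DNA as dimers, and each partner of the dimer contacts 1 arm of a palindromic site, although a single arm can also be bound with lower affinity. Stretches of the genome with few or no protein-coding genes, known as gene deserts, often flank genes for developmental regulators and hold enhancers that act over long distances. Assignment of such a peak to its nearest gene is a label of position and does not show which gene, if any, the site controls.

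The NFI full site was searched as TGGCNNNNNGCCA, where N is any base, and up to 1 mismatch was allowed among the 8 fixed bases. The site reads alike on both strands. The 10 far intergenic peaks with the highest scores among those with an exact site, without any mismatch, are shown with 15 bases on each side, because they display both arms and how the 5 bases between them vary. Each line gives the nearest gene and the position on mm10, forward strand, and capitals mark the site.
Mir124-2hg (chr3:17616975-17617017): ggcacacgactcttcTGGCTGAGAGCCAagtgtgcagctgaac
Bcor (chrX:11735747-11735789): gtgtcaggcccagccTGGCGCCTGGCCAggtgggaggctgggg
Kit (chr5:75451820-75451862): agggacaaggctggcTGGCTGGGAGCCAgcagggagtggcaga
Ccdc34os (chr2:110178034-110178076): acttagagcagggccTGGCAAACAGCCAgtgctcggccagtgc
Gm5083 (chr13:43991945-43991987): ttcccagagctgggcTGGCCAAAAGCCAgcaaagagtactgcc
Tex29 (chr8:12030918-12030960): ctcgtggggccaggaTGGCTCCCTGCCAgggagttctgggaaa
Bmper (chr9:23083716-23083758): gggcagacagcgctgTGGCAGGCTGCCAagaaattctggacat
Mir148a (chr6:51119840-51119882): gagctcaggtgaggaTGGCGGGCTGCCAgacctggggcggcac
Ercc6l2 (chr13:63918441-63918483): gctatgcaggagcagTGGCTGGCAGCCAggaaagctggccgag
Auts2 (chr5:133173500-133173542): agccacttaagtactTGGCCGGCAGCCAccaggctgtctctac
The 5 central bases differ between all 10 sites, while both arms are fixed by the search. Among these nearest genes, *Kit* codes for the receptor of stem cell factor, *Bcor* for a corepressor that associates with BCL6, *Bmper* for a regulator of bone morphogenetic proteins and *Mir148a* for a microRNA abundant in the pancreas. The sites lay between 71 bp left and 59 bp right of the centre of the peak, and 6 of 10 within 25 bp. Peak scores went from 18.3 next to *Mir124-2hg* to 10.6 next to *Auts2*, whose TSS lay 631249 bp away.

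None of these 10 belonged to the 10 highest-scoring far intergenic peaks. The 3 highest scores of all, next to *Maf*, *Arid1b* and *Mycn*, and the fifth, next to *Inhbb*, fell on peaks without a full site. *Maf* and *Mycn* code for transcription factors of the bZIP and the bHLH type, *Arid1b* for a subunit of the SWI/SNF chromatin remodelling complex and *Inhbb* for a subunit of inhibins and activins. Their whole peaks are shown because they hold repeated copies of a short NFI arm of 5 bases, TTGGC or its complement GCCAA, which capitals mark. This word was chosen after these sequences had been seen.
Maf (chr8:115903934-115904106): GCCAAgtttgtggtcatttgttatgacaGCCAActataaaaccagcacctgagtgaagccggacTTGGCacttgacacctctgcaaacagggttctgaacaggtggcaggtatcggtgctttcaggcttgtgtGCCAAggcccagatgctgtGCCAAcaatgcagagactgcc
Arid1b (chr17:4868189-4868361): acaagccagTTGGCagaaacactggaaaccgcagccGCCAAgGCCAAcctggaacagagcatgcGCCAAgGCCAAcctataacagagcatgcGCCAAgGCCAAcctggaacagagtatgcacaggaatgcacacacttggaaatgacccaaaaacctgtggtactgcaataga
Mycn (chr12:12810269-12810441): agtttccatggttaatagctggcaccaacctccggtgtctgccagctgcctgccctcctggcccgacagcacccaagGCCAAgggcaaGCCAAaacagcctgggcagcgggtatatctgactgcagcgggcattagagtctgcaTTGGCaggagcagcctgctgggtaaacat
Inhbb (chr1:119295263-119295435): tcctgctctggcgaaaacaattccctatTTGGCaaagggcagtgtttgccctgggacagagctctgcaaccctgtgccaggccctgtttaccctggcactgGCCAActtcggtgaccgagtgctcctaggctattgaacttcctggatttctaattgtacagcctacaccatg
The *Arid1b* peak held 7 short arms, and 6 of them stood in pairs within a run of 15 bases that occurs 3 times in the peak. There were 5 short arms in the *Maf* peak, 3 in the *Mycn* peak and 2 in the *Inhbb* peak. The other 6 of the 10 highest scores fell on peaks with a full site of 1 mismatch. Examples are the peak next to *Prok2*, which codes for the secreted peptide prokineticin 2, with a score of 21.5, and the peak next to *Rybp*, a member of Polycomb repressive complexes, with a score of 20.1. In these, capitals mark the full sites.
Prok2 (chr6:99934555-99934727): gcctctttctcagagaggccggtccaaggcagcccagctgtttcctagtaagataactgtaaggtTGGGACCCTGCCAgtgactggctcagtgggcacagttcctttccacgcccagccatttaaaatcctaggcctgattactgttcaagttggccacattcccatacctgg
Rybp (chr6:100144066-100144238): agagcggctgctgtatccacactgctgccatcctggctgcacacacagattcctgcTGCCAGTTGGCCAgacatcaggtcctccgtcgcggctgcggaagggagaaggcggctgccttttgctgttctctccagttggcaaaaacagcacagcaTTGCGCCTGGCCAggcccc

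Peak scores of far intergenic peaks were lower than those of the rest of the list. The score is the authors' own measure of each peak, on a scale not given in the sources used here, and rises in steps of about 0.2 from a lowest value of 3.39. Far intergenic peaks had a median score of 6.17 (interval 5.78 to 6.37), with quartiles of 4.58 and 8.37 and a maximum of 31.3. The median was 6.37 (6.37 to 6.57) in mid-range intergenic peaks, 6.97 (6.77 to 7.37) in the 1178 intergenic peaks within 10 kb of a TSS, and 6.57 over all peaks. Of far intergenic peaks, 44.2% were in the upper 2 quartiles of score of the whole list, beside 49.8% of mid-range peaks. The difference was -5.6 percentage points, with an interval from -9.7 to -1.44 that lay below 0. Focus ratios, the fraction of tags close to the peak centre, were close in median, at 0.697 in far intergenic peaks and 0.691 in mid-range peaks.

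Distances to the TSS ranged from 100381 to 1365802 bp, with a median of 166189 bp. There were 429 peaks at 100 to 200 kb, 216 at 200 to 500 kb and 34 beyond 500 kb, and 370 were upstream of the nearest TSS and 309 downstream. Median score was 6.17 both at 100 to 200 kb and at 200 to 500 kb, and 4.98 (interval 4.18 to 5.58) beyond 500 kb, where 8 of 34 peaks reached the upper 2 quartiles. The 5 farthest peaks were assigned to *Gm15679* at 1365802 bp upstream, to *Cdh20* at 1210648 and 1006018 bp upstream, to *Crim1* at 1063031 bp upstream and to *Acvr2a* at 956706 bp upstream. *Cdh20* codes for a cadherin, *Crim1* for a transmembrane protein that binds bone morphogenetic proteins and *Acvr2a* for a type 2 activin receptor. These 5 peaks scored 5.58, 3.78, 7.57, 6.37 and 13.1 for *Gm15679*, the farther and the nearer *Cdh20* peak, *Crim1* and *Acvr2a*, respectively. The members just inside the limit of 100 kb were those of *1700027F09Rik* (100381 bp, score 18.3), *Gm5820* (100403 bp, 5.18), *Adam7* (100457 bp, 4.38), *4930517M08Rik* (100482 bp, 7.97) and *Nr5a2* (100735 bp, 6.17). Just outside were peaks of *Ankrd55* (99935 bp, score 14.1), *Lhx5* (99640 bp, 3.59), *4930425L21Rik* (99215 bp, 14.5), *2310005E17Rik* (99180 bp, 5.58) and *Rragc* (99095 bp, 3.39).

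**Figure D1:**
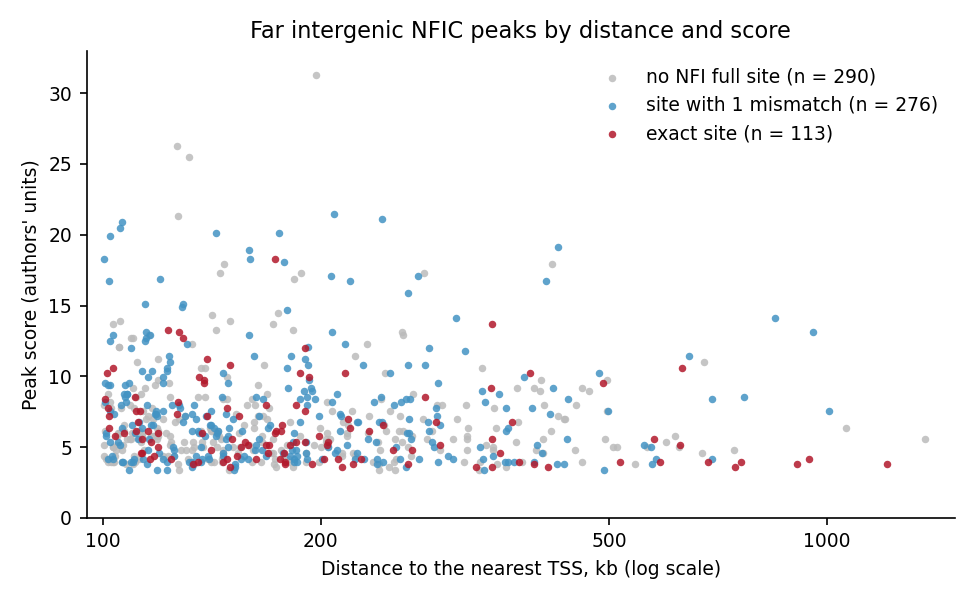
Peak score (authors' units, linear axis) of each of the 679 far intergenic peaks against its distance to the nearest TSS in kb (logarithmic axis). Grey points are the 290 peaks without an NFI full site, blue points the 276 with a site of 1 mismatch and red points the 113 with an exact site. The 3 highest points are grey, and the 34 points beyond 500 kb all score below 15.

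An NFI full site was found in 389 of the 679 far intergenic peaks, in the 200 bp around the centre. This is 57.3% (interval 53.5 to 61), beside 6.77% of the 1358 windows of the same size that lie 1000 bp to either side of these peaks. Of all 200-bp windows outside genes and at more than 100 kb from any RefSeq TSS, predicted models included, 3.74% held a site. The share was 54.5% in mid-range intergenic peaks, a difference of 2.81 points whose interval, from -1.34 to 6.9, includes 0. By GC content of the window, the difference was -6.96 points (-23 to 9.95) under 40% and 1.14 points (-5.09 to 7.34) at 40 to 50%. At 50% and over the shares were 65.3% and 56.6%, a difference of 8.71 points (2.77 to 14.3). These intervals were not adjusted for the number of bins. Against all other peaks, at 51.5%, the difference was 5.76 points (1.93 to 9.52). An exact site was present in 113 far intergenic peaks, or 16.6%, in 15.7% of mid-range peaks, in 13.3% of all other peaks and in 0.884% of the windows 1000 bp away. Exact arms with another spacing were rare. Spacers of 3, 4, 6 and 7 bases occurred in 3, 15, 11 and 2 far intergenic peaks, beside the 113 with a spacer of 5. Of peaks with a full site, 206 of 389 (53%) had it within 25 bp of the centre, and 61 peaks held at least 2 sites.

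**Figure D2:**
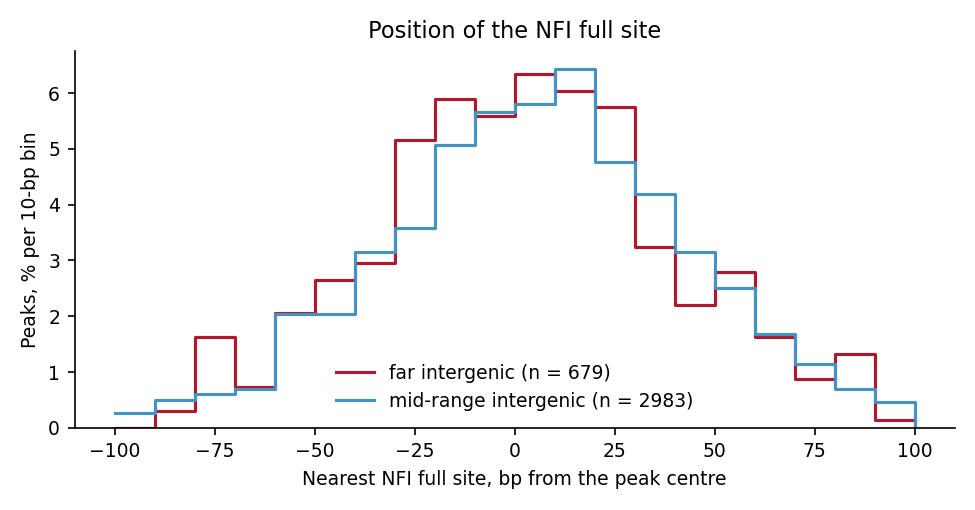
Distance in bp from the peak centre to the nearest NFI full site (at most 1 mismatch), as the percentage of peaks per bin of 10 bp, for 679 far intergenic (red) and 2983 mid-range intergenic peaks (blue). Both distributions are highest near the centre, and 53% of the far intergenic sites lie within 25 bp of it.

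In the lowest quartile of score, far intergenic peaks held NFI full sites, with up to 1 mismatch, more often than other peaks. From the highest to the lowest quartile of score, the share with a full site was 66%, 61%, 45.3% and 59% in far intergenic peaks (n = 141, 159, 179 and 200), and 68.1%, 50.6%, 44.2% and 42% in all other peaks. In the lowest quartile the difference from all other peaks was 17 points (9.84 to 23.7). Mid-range intergenic peaks of the lowest quartile were at 48.5%, and the difference from them was 10.5 points (2.75 to 17.9). Leaving out peaks on repeats, the shares were 56.7% of 157 and 48.1% of 643, and the interval of the difference, from -0.0889 to 17.1, reached 0. Exact sites in the lowest quartile were at 20.5% in far intergenic, 17.1% in mid-range and 13.1% in all other peaks. The difference from mid-range peaks was 3.38 points (-2.34 to 9.97). For sites with up to 1 mismatch, the difference from mid-range peaks was 9.11 points (0.572 to 17.2) in the second quartile. It was -1.83 points (-10.6 to 6.25) in the highest quartile and -4.6 points (-12.6 to 3.6) in the third. With 4 quartiles compared, the intervals were not adjusted for their number. Far intergenic peaks with an exact site had a median score of 5.58 (5.18 to 6.17), below the 6.77 (6.37 to 7.37) of those with a site of 1 mismatch. Far intergenic peaks without a site were at 5.78 (5.58 to 6.17), so those with an exact site did not score higher than those without. In mid-range peaks the medians were 6.37 (5.98 to 6.77) with an exact site and 6.97 (6.77 to 7.37) with 1 mismatch. Mid-range peaks without a site were at 6.08 (5.98 to 6.17).

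**Figure D3:**
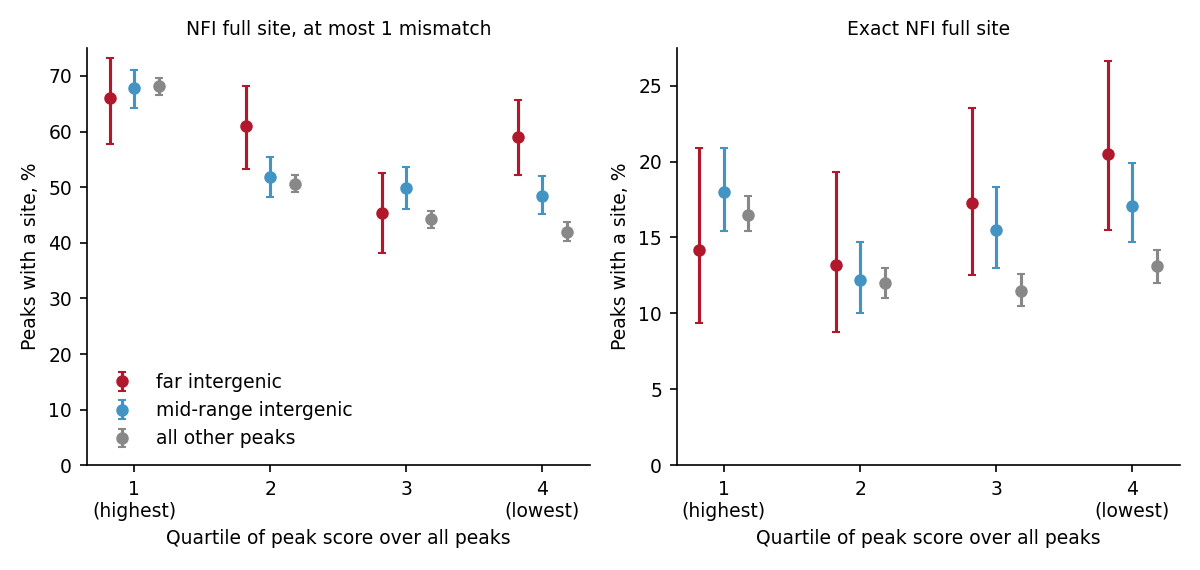
Percentage of peaks with an NFI full site with at most 1 mismatch (left) or an exact site (right) in each quartile of peak score over the whole list. Points are far intergenic (red), mid-range intergenic (blue) and all other peaks (grey), and bars are 95% Wilson intervals. In the lowest quartile the far intergenic share is 59%, above the 42% of all other peaks.

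Peaks without a full site were not devoid of NFI sequence. A single arm, searched as TTGGCA on either strand, was present in 146 of the 290 far intergenic peaks without a full site (50.3%) and in 39.8% of the 1358 such mid-range peaks. Over all far intergenic peaks the single arm was found in 42.9%, beside 37.7% of mid-range peaks, a difference of 5.18 points (1.11 to 9.31), and 9.72% of the windows 1000 bp away. Neither a full site nor a single arm was found in 144 far intergenic peaks, or 21.2%. The short arm TTGGC occurred at least 2 times in 31.2% of far intergenic peaks, in 28.4% of mid-range peaks and in 4.05% of intervals of the same length 1000 bp away. Multiple short arms were most frequent at high scores. Among far intergenic peaks without a full site, at least 2 were present in 62.5% of the 48 peaks of the highest quartile (48.4 to 74.8), 38.7% of 62, 22.4% of 98 and 19.5% of the 82 of the lowest quartile (12.4 to 29.4). Without the peaks of the 10 highest scores, in which the word was noticed, the share in the highest quartile was 59.1% of 44. For all other peaks without a full site the shares in the highest and lowest quartiles were 37% of 1242 and 15.7% of 2051. At least 4 short arms were found in 15 far intergenic peaks and in 0 of the 1358 intervals 1000 bp away, which allows a share of up to 0.221%.

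Motifs of factors known to act with NFIC or in acinar cells were searched on both strands as fixed words in the same windows. The E-box CAGCTG, a word bound by bHLH factors such as PTF1A and MIST1, was present in 22.2% of far intergenic peaks (19.3 to 25.5), 24.9% of mid-range peaks and 10.5% of windows 1000 bp away. The difference from those windows was 11.8 points (8.34 to 15.4). Base composition differs between them, with a median GC content of 49% at the peaks and 44.5% in the windows 1000 bp away. At like GC content the E-box was still more frequent in the peaks: in those with a GC content of 40 to 50% it was found in 19.4% (15.5 to 24), beside 7.32% of such windows of the far genome, and in those of 50% and over in 27.1% (22.4 to 32.3), beside 12.6%. The far genome here lies outside genes and over 100 kb from any RefSeq TSS, with predicted models and chromosome Y included. Only 165 of the 679 peaks (24.3%) lie in it. The windows 1000 bp away were not compared at like GC content. The RBPJ word TGGGAA, bound by RBPJ and by the RBPJL subunit of the PTF1 complex, was present in 23% of far intergenic peaks and 17.7% of windows 1000 bp away, a difference of 5.23 points (1.55 to 9.07). The FOX word TGTTTAC reached 5.45% beside 3.09%, a difference of 2.36 points (0.543 to 4.48). The interval of the difference from the windows 1000 bp away included 0 for the GATA word GATAAG (10.6% and 8.54%), the AP-1 word TGACTCA (4.57% and 4.2%), the HNF4 word CAAAGTCCA (0.884% and 0.515%) and the NR5A2 word TCAAGGTCA (0.442% and 0.736%). At like GC content, the interval of the GATA share lay above the share of far-genome windows in every bin: 19.6% (10.7 to 33.2) beside 8.95% under 40% GC, 10.9% (7.98 to 14.7) beside 7.37% at 40 to 50%, and 8.91% (6.2 to 12.7) beside 4.5% at 50% and over. For AP-1 this held under 40% GC, with 4 of 46 peaks or 8.7% (3.43 to 20.3) beside 2.51%, and at 40 to 50%, with 5.76% (3.72 to 8.82) beside 3.04%, while at 50% and over the interval (1.34 to 5.12, around 2.64%) included the 2.16% of such windows. RBPJ lay above such windows at 40 to 50% GC (22.1%, 18 to 26.9, beside 17.7%) and at 50% and over (24.8%, 20.2 to 29.9, beside 18.7%). So did FOX, at 6.36% (4.2 to 9.53) beside 2.46% and 3.96% (2.28 to 6.79) beside 2.23%. Under 40% GC the intervals of RBPJ (9.09 to 30.7) and FOX (3.43 to 20.3) included the shares of such windows, 12.9% and 3.77%. These are matches to letters, and a word not found says nothing of whether the factor was bound.

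The words FOX and AP-1 were less frequent in far intergenic peaks with a full site than in those without. FOX was found in 3.6% of the 389 far intergenic peaks with a full site and 7.93% of the 290 without, a difference of -4.33 points (-8.29 to -0.836), and AP-1 in 3.08% and 6.55%, a difference of -3.47 points (-7.16 to -0.251). For the E-box the shares were 21.9% and 22.8%, a difference of -0.908 points (-7.33 to 5.33). GATA was found in 9.77% and 11.7%, RBPJ in 21.6% and 24.8%, the SP word GGGCGG in 3.86% and 4.48%, and the CTCF consensus in 0.771% and 1.72%, with intervals that included 0. The intervals were not adjusted for the number of words compared. In mid-range peaks FOX was also less frequent with a full site, 3.69% beside 6.77%, a difference of -3.08 points (-4.76 to -1.49), whereas for AP-1 the shares were 4.55% and 5.15%, a difference of -0.601 points (-2.19 to 0.941). This was not particular to FOX. Shares in mid-range peaks with and without a full site were 20.4% and 25.3% for RBPJ and 8.12% and 11.1% for GATA. They were 7.94% and 12.2% for SP, 2.28% and 4.42% for CTCF, and 24.7% and 25.1% for the E-box.

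The SP and CTCF words were less frequent in far intergenic than in mid-range peaks. The SP word GGGCGG, a GC box, was present in 4.12% of far intergenic peaks, beside 9.89% of mid-range peaks, a difference of -5.77 points (-7.45 to -3.72), and 21.1% of all peaks. In the windows 1000 bp away it was found in 2.87%, a difference of 1.25 points (-0.372 to 3.18). Median GC content was 49.1% in far intergenic peaks, 52% in mid-range peaks and 54.3% over all peaks, and at least 5 CpG dinucleotides were found in 13.4%, 22.4% and 38%, respectively. A CpG island was annotated at 6 far intergenic peaks, among them the peak of *6820431F20Rik*, whose score of 20.1 is within the 10 highest. The consensus of CTCF, the factor bound at insulators and at the anchors of chromatin loops, matched in 1.18% of far intergenic and 3.25% of mid-range peaks, a difference of -2.07 points (-2.98 to -0.805), and in 0.0736% of the windows 1000 bp away, a difference of 1.1 points (0.431 to 2.24). How far GC content accounts for these differences was not tested.

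**Figure D4:**
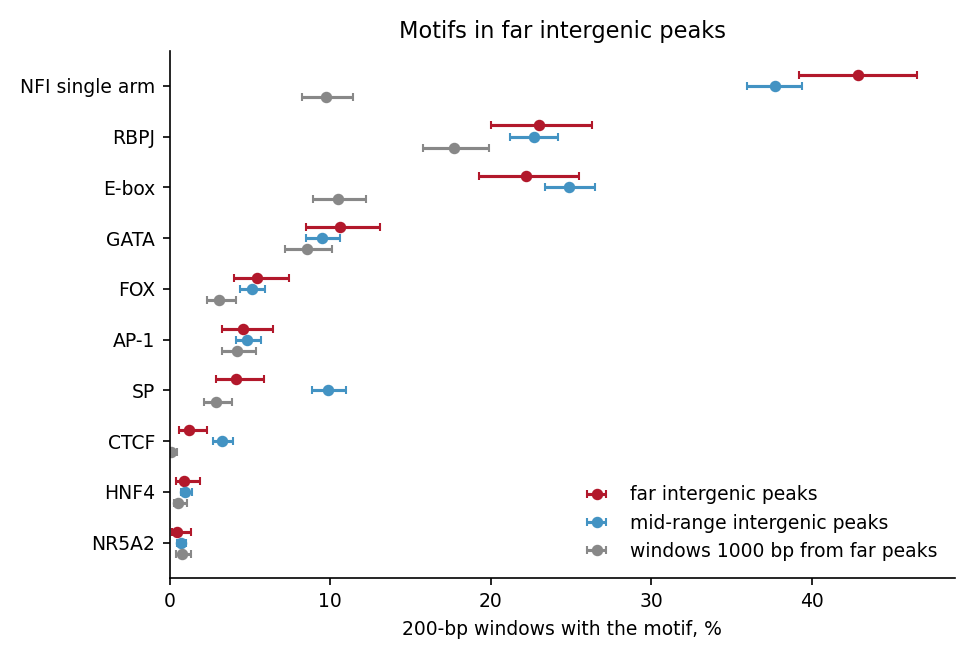
Percentage of 200-bp windows that hold each fixed word on either strand, in far intergenic peaks (red, n = 679), mid-range intergenic peaks (blue, n = 2983) and windows 1000 bp to either side of far intergenic peaks (grey, n = 1358). Bars are 95% Wilson intervals. The NFI single arm (42.9% beside 9.72%) and the E-box (22.2% beside 10.5%) stand apart from the windows 1000 bp away.

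NFIC peaks were sparse in the far intergenic genome. With distances taken from the curated transcripts of the RefSeq annotation, 585 peaks fell on 750 Mb at more than 100 kb from a TSS and outside genes, or 0.78 peaks per Mb. The density was 4.42 per Mb at 10 to 100 kb, 14.5 per Mb within 10 kb and 9.06 per Mb inside genes. The ratio of the first to the second was 0.177 (0.162 to 0.193). This set of transcripts was chosen after seeing the data, as it leaves most of the 679 peaks beyond 100 kb. With all RefSeq transcripts, predicted models included, 165 peaks fell on 431 Mb and the ratio was 0.132 (0.113 to 0.155). The far genome was not poor in sites in the same measure. It held 7626 exact NFI full sites, of which 104 lay in a peak, or 1.36% (1.13 to 1.65). At 10 to 100 kb, 451 of 10094 exact sites lay in a peak, or 4.47% (4.08 to 4.89), and inside genes 6.89% of 19410. Chromosome Y has 73.1 Mb of far genome and 0 far intergenic peaks, and without it the shares were 1.6% and 4.54%.

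**Figure D5:**
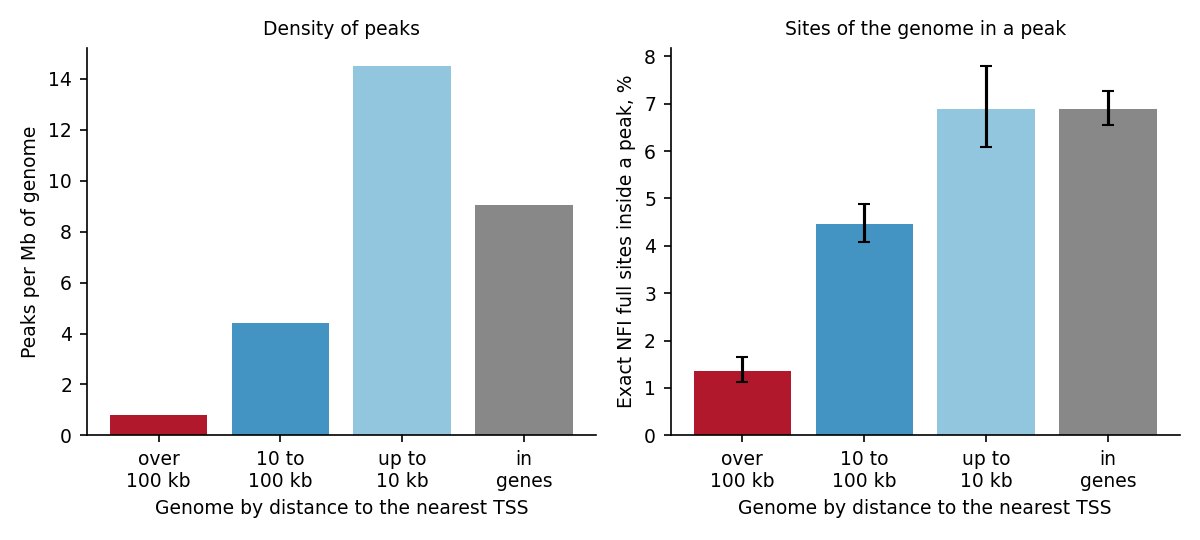
Peaks per Mb of genome (left) and the percentage of exact NFI full sites that lie inside a peak (right), by distance of the genome to the nearest TSS of curated RefSeq transcripts. Bars on the right are 95% Wilson intervals. Both measures are lowest beyond 100 kb, at 0.78 peaks per Mb and 1.36% of sites.

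Among chromosomes, chromosome 13 had the most far intergenic peaks, 56 of its 661 peaks, and the share was highest on chromosome X, with 23 of 171 (13.5%). The gap between *H2al1j* and *Bcor* held 13 of these 23, and without it the share on chromosome X was 6.33% (10 of 158, 3.47 to 11.3), below the 8.47% of chromosome 13. Per Mb of far genome, by curated transcripts, the density went from 0.425 on chromosome X to 1.72 on chromosome 9, and was 0 on chromosome Y.

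The label of gene desert was checked against other annotations. Of the 679 peaks, 597 (87.9%) were over 100 kb from the TSS of every curated RefSeq transcript and 618 (91%) from every protein-coding one. The distance to the nearest curated TSS was that of the authors within 1 bp for 522 peaks. With predicted models and other non-coding transcripts included, only 171 (25.2%) remained over 100 kb from a TSS, and 140 peaks (20.6%) lay inside a gene of that wider set. By the GENCODE annotation 121 peaks were inside a gene, and 80 overlapped a lincRNA. Gaps between neighbouring protein-coding genes held 651 of the peaks, and the median over peaks of the length of their gap was 555 kb, with a range from 19 to 4278 kb. Counting each of the 356 gaps 1 time, the median was 504 kb. Gaps over 500 kb held 373 peaks (54.9%) and gaps over 1 Mb held 162 (23.9%). Of 283 gaps over 1 Mb in the genome, 81 held a far intergenic peak.

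Far intergenic peaks were more isolated than other peaks, although some formed groups. Another peak lay within 10 kb of 145 of them (21.4%), beside 28.6% of mid-range peaks, a difference of -7.21 points (-10.6 to -3.6). The median distance to the nearest other peak was 55320 bp, and 20095 bp for mid-range peaks. None of the 34 peaks beyond 500 kb had a neighbour within 10 kb, and a count of 0 of 34 allows a share of up to 8.82%. Of the 356 gaps that held far intergenic peaks, 214 held 1, and 34 gaps with at least 4 accounted for 198 peaks.

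The most populated gap was that between *Prok2* and *Rybp* on chromosome 6, 502 kb long, with 14 far intergenic peaks over 279 kb. A full site was present in 12 of them, of which 1 was exact. Scores followed no gradient along the gap. On the *Prok2* side the 6 peaks scored, in order of position, 18.1, 5.38, 21.5, 21.1, 10.2 and 6.97, and on the *Rybp* side the 8 peaks scored 4.18, 4.58, 6.17, 18.3, 12.9, 20.1, 4.18 and 4.38. The pair at 18.3 and 12.9 lay less than 1 kb apart. In the gap between *H2al1j* and *Bcor* on chromosome X, 709 kb long, there were 13 far intergenic peaks, of which 11 had a full site and 6 an exact one. Their scores were lower, from 3.98 to 13.7 with a median of 6.17. Next came the gaps of *Ly86* and *Rreb1* with 9 peaks, and those of *Pmp22* and *Gm29958*, *Jun* and *Fggy*, *Myc* and *Gsdmc*, and *Zeb2* and *Acvr2a* with 7 each. In the 3697 kb between *Zeb2* and *Acvr2a*, all 7 peaks lay within 767 kb on the side of *Acvr2a*, and their median score was 9.76.

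By nearest gene, the 679 peaks were assigned to 441 genes, and 309 of these had 1 far intergenic peak. *Bcor* had 9, of which 8 held a full site, *Rybp* 8, and *Acvr2a*, *Ly86* and *Fut8* 7 each. *Ly86* codes for a protein that pairs with the receptor CD180, and *Fut8* for the fucosyltransferase of the core of N-glycans. *Prok2*, *Nr2f2* and the pseudogene *H2afy3*, in the gap of *Myc*, had 6 each, and *Dapk1*, a kinase linked to cell death, *Hs6st1*, which modifies heparan sulfate, and *Tbl1xr1*, a subunit of corepressor complexes, had 5 each. The share with a full site differed from gene to gene, from 8 of 9 for *Bcor* to 0 of 5 for *Tbl1xr1*. Median scores went from 5.38 for *Rybp* and *Hs6st1* to 14.2 for *Prok2*. A promoter-TSS peak was also present at 70 of the 441 genes (15.9%), beside 18.8% of the 2126 nearest genes of mid-range peaks. The nearest gene was protein-coding for 515 peaks (75.8%) and a non-coding RNA for 150.

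Genes of the transcriptional network of the pancreas were few in number among the nearest genes, but their share was above that over all peaks. They made up 1.36% (0.625 to 2.94) of the nearest genes, beside 0.517% (0.289 to 0.924) for mid-range peaks and 0.264% for all peaks. The intervals of far intergenic and mid-range peaks overlap. From a list of 30 pancreas transcription factors, 6 had far intergenic peaks, 9 in all (1.33%), beside 0.805% of mid-range peaks and 0.411% of all peaks. Of these 9 peaks, 3 were at *Klf4* and 2 at *Klf5*, and the list was chosen with earlier results of these data known. The peak of *Isl1*, an islet factor, lay 307008 bp downstream with a score of 14.1 and a full site. *Klf4* had 3 peaks upstream, at 106344, 118975 and 183781 bp, with scores of 3.98, 7.17 and 3.98, each with a full site. *Klf5* had 2 peaks, at 279986 and 281023 bp downstream, with scores of 5.58 and 6.77, and the second held a full site. *Gata6*, an acinar regulator, had 1 peak 115561 bp upstream with a score of 9.96 and a full site. *Nkx6-1*, a beta cell factor, had 1 peak with a full site at 106228 bp and a score of 6.37, and *Nr5a2*, an acinar regulator, 1 without a full site at 100735 bp and a score of 6.17. No member of the NFI family (*Nfia*, *Nfib*, *Nfic*, *Nfix*) was the nearest gene of a far intergenic peak, and a count of 0 of 679 allows a share of up to 0.442%. This limit is above the share over all peaks, of which 20 (0.126%) were assigned to them, and above the 0.0335% of mid-range peaks. The count of 0 therefore does not show a lack. Families of developmental transcription factors accounted for 32 far intergenic peaks (4.71%), beside 2.45% of mid-range peaks and 1.51% of all peaks. *Nr2f2*, an orphan nuclear receptor, had 6 of the 32, from 115395 to 743066 bp upstream, with scores of 4.78 to 13.1. A list of adhesion families taken by the start of the gene symbol had 7 peaks (1.03%), beside 0.201% of mid-range peaks and 0.253% of all peaks. All 7 of them were at cadherins, and among these 1 at *Cdh5*, the cadherin of endothelial cells. Olfactory and vomeronasal receptors had 1 peak (0.147%), beside 0.268% of mid-range peaks and 0.139% of all peaks. Genes with large deserts around them can be the nearest gene of more far peaks by position alone, and this was not accounted for.

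Repeats were annotated at 117 far intergenic peaks (17.2%, 14.6 to 20.3) and 10.1% of all other peaks. Other intergenic peaks were alike, with 15.9% of mid-range peaks and 17.1% of those within 10 kb of a TSS. The difference was 1.37 points (-1.61 to 4.65) from mid-range peaks and 7.08 points (4.38 to 10.1) from all other peaks. There were 62 peaks on LTR elements, 23 on LINEs, 19 on SINEs and 8 on DNA transposons. The most frequent families were ERVL-MaLR with 23 peaks, ERVK with 22 and L1 with 20, and a full site was present in 12, 14 and 8 of these. Beyond 500 kb, 13 of 34 peaks were on a repeat. Peaks on a repeat had a median score of 5.38 (4.98 to 5.78), and the others 6.17 (5.98 to 6.57). The central 32 bases occurred once in the genome for 676 of the 679 peaks.

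Of the enhancers of the VISTA collection recorded in the RefSeq annotation, 3 overlapped far intergenic peaks. These were mm457 at a peak of *Gm20740* (score 5.58), mm308 at a peak of *Fggy* (score 4.18) and mm1696 at the peak of *Bmper* (score 11.2), whose exact site is shown above. All 3 peaks held a full site. The share, 0.442% (0.15 to 1.29), was beside 1.01% (0.705 to 1.43) for mid-range peaks and 0.43% (0.339 to 0.544) for all peaks. It was thus close to the share over the whole list.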

How the data were processed

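The analysis started from 1 merged list of NFIC peaks, made from 3 ChIP libraries of the pancreas of wild-type mice beside 1 library of input DNA. The age and strain given are those of the labels. The paper gives a narrower age range, and a mostly C57BL/6 background for its crosses. The submitters' processing notes name BWA, Picard and MACS2 and the build mm10, and the file header names HOMER's annotation. The methods of the paper also name RUbioSeq+ and HOMER for calling peaks, in a passage on downloaded data of other factors. Thresholds, and which program gave the NFIC score, are not given in the sources used here. The peak score is the authors' own, as deposited. The focus ratio is a fraction of tags near the peak centre, as the authors deposited it. Other columns deposited by the authors are positions and the distance to the TSS in bp. There are 0 columns per sample.

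Sequences came from RefSeq GRCm38, the assembly of mm10. Motifs were searched in windows of 200 bp. Shares have 95% Wilson intervals, differences of shares Newcombe intervals, medians binomial intervals and the ratio of densities a Poisson interval. The share that a count of 0 allows is given instead as 3 divided by the number of peaks or intervals. Wilson upper limits are higher, at 10.2% for 0 of 34, 0.563% for 0 of 679 and 0.282% for 0 of 1358. No p-value was computed. Motif search and intervals were tested on simulated data.

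Members and lists were chosen with earlier results of these data known. Named genes are the nearest genes of the 10 highest scores, of the 5 farthest peaks, and those nearest to the largest numbers of far intergenic peaks (10, ties included), and members of the NFI and pancreas lists. Other genes, the short arm TTGGC and the gaps described were chosen after their values were seen. Python 3.11, numpy 2.4.6, pandas 2.3.3 and scipy 1.17.1 were used. Alternatives varied the distance limit, window, mismatches, annotation and the peaks kept.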

Additional observations from a re-analysis of the deposited data

How the results depend on the processing

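The list used here holds no value per library, so no replicate could be left out, and depth cannot be weighed. No paired analysis was possible because the columns carry no replicate numbers. The number of far intergenic peaks was 1448 above 50 kb, 250 above 200 kb, 165 by distances and gene bodies of RefSeq with predicted models, and 300 in the upper 2 quartiles of score. The share with an NFI full site was 16.6% without a mismatch, 43.4% in windows of 100 bp and 63.3% in the upper 2 quartiles, and from 54.8% to 57.5% under the other 5 alternatives. Its difference from mid-range peaks turned to -0.384 points (-3.68 to 2.9) with a limit of 50 kb, and stayed between 0.92 and 3.47 points, with intervals that include 0, under the other 7. The median score stayed between 5.78 and 6.17. The ratio of densities was 0.234 with protein-coding genes, and 0.177 with curated transcripts, an alternative that was chosen after seeing the data, as was leaving out chromosome Y (0.138). Another peak was found within 5 kb of 15.5% and within 20 kb of 31.5%. Repeats reached 2.5% when over 50% of the peak had to be in lower case in the genome sequence, and the cause was not tested. In windows of 100 bp the E-box was found in 13% of peaks, GATA in 4.12% and SP in 2.8%, as follows from the smaller window.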
